A study of Mus musculus with 4 samples.

Results

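The 35 genes described here are immediate early genes together with genes that respond beside them when tissue is taken apart into single cells, a group named by symbol: Fos, Fosb, Fosl1, Fosl2, Jun, Junb, Jund, Egr1, Egr2, Egr3, Atf3, Ier2, Ier3, Ier5, Dusp1, Dusp2, Dusp5, Dusp6, Nr4a1, Nr4a2, Nr4a3, Zfp36, Zfp36l1, Btg2, Klf2, Klf4, Klf6, Socs3, Myc, Maff, Gadd45a, Gadd45b, Cebpb, Cebpd and Rhob. All 35 were found by symbol among the 32285 genes of the count tables, and each had at least 1 UMI. A UMI (unique molecular identifier) stands for 1 captured RNA molecule, so PCR copies count once. The genes were read in 7 classes of crypt cell and in each of 4 libraries.

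Immediate early genes are switched on within minutes of a growth factor, a stress or mechanical handling, from transcription factors such as SRF, TCF and CREB that are already present in the cell. FOS and JUN proteins pair to form the transcription factor AP-1, and EGR, NR4A, KLF and ATF3 proteins are further early transcription factors. DUSP phosphatases switch MAP kinases off again, and ZFP36 proteins speed the decay of early transcripts, so that the response normally fades. In gut epithelium the same genes also rise when crypts are released from the tissue and dissociated.

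Transcripts were counted in single cells of mouse small-intestinal crypts, in a study of sleep deprivation. The design text gives mice before and after sleep deprivation, and the labels give the groups 2D and 0D without saying what the letter stands for, each with 2 libraries (2D-1 and 2D-2, and 0D-1 and 0D-2). Paired values of a group are given with its replicate 1 before its replicate 2. Crypts of all 4 libraries were released with EDTA (10 mM, 30 min, kept at 4 °C), passed through a 70 µm strainer and run on the 10x Genomics 3′ kit. The labels used here give no strain, age or sex and do not say whether the 2 libraries of a group came from separate animals, so p-values reflect no more than how far these libraries differ, possibly for technical reasons.

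Kept were 7025 and 7988 cells of 2D, against 7586 and 7132 of 0D, holding 110587001 and 93090534 UMIs in 2D and 113758758 and 110817632 in 0D. The library 2D-1 stood apart, with a median mitochondrial share of UMIs of 6.25%, against 3.71% in 2D-2, 4.48% in 0D-1 and 3.96% in 0D-2. Between 75 and 82 of the cell barcodes of each library also occurred in another library. Cells were assigned by gates on the summed UMIs of published markers (8 to 13 genes a class), none of which is among the 35 genes. Goblet cells, which secrete mucus, numbered 3203 and 4271 in 2D, against 2960 and 3010 in 0D. Stem cells numbered 500 and 475 in 2D, against 1126 and 835 in 0D, and tuft cells 234 and 359 in 2D, against 193 and 236 in 0D. Immune markers summed to between 6.19 and 12.4 CPM in all cells, stromal and endothelial markers to under 1 CPM. CPM here are UMIs scaled to a common total of the cells summed (counts per 10 to the power 6). Library totals were adjusted by TMM, a method that lines up the bulk of genes between libraries. For CPM, TMM was run inside each class, so CPM of different classes are not lined up by it. Fits of a class against the other gated cells used TMM across both sides. Leaving TMM out of them shifted the log2 median of all genes by 0.66 in enteroendocrine, 0.44 in tuft, 0.31 in stem and -2.37 in Paneth cells.

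On CPM, which were not lined up between classes, the level of these genes differed more between cell classes than between groups. Summed over the 35 genes, goblet cells held 7564 and 10725 CPM in 2D, against 9045 and 8692 CPM in 0D. Enteroendocrine cells, which make hormones, held 8125 and 9269 CPM in the 2D libraries, against 7292 and 7721 CPM in the 0D libraries. Tuft cells, the chemosensory cells of the epithelium, held 3143 and 3707 CPM in 2D, against 2538 and 2633 CPM in 0D. Stem, dividing, enterocyte and Paneth cells all lay between 1026 and 1713 CPM in every library. Goblet and enteroendocrine cells overlapped, both stood above every tuft value, and tuft cells stood above the other 4 classes. Among those 4, every enterocyte value lay above every dividing value, and the other pairs overlapped. This order depends on the scaling. With TMM across both sides, the median log2 difference of the genes from the other gated cells was 1.93 in goblet and 0.31 in enteroendocrine cells. It was 0.23 in Paneth, -0.84 in tuft, -1.73 in enterocyte, -2.58 in stem and -2.95 in dividing cells. The mean summed level in goblet cells was 6.87 times that in stem cells, and tuft cells held 33.4% of the goblet level. The 5 highest members made up 57.2% of the goblet sum and 58.2% of the stem sum.

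**Figure D1:**
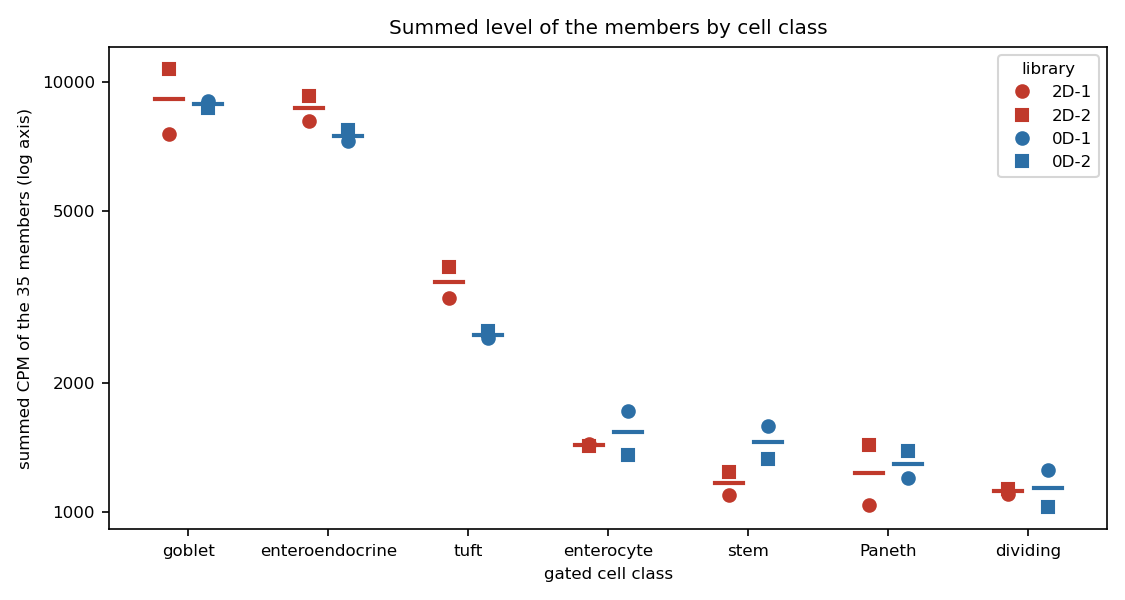
Summed CPM of the 35 genes (log axis) in each gated cell class, with 2D libraries in red on the left of each class and 0D libraries in blue on the right (circles replicate 1, squares replicate 2, bars the mean of 2 libraries). Goblet and enteroendocrine cells lie between 7292 and 10725 CPM, and stem, dividing, enterocyte and Paneth cells between 1026 and 1713 CPM. CPM are not lined up between classes, so the order of classes depends on the scaling.

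For each of the 35 genes, the spread between class means was larger than the spread between libraries within a class. The same was not counted over all genes, so this is not particular to the members. The spread between classes also holds the scaling of the classes, which TMM did not line up. The median SD of log2(CPM + 1) was 1.43 between classes and 0.31 between libraries. The highest class by CPM was enteroendocrine for 18 genes, goblet for 13, stem for 2 (Myc and Cebpd) and enterocyte for 2 (Ier5 and Cebpb). These counts have no share of all genes beside them and are not read as particular to the members. Without TMM the median log2 difference of all genes in enteroendocrine cells from the other gated cells was itself 0.64. Over the 28 sums of 7 classes in 4 libraries, the genes that followed Fos most closely by Spearman's rho were Atf3 at 0.97, Dusp1 at 0.92, Dusp5 at 0.90, Egr1 at 0.89 and Nr4a1 at 0.86. Of the other 34 genes, 9 had a rho over 0.8 with Fos, and 5 had one below 0: Zfp36l1, Ier5, Cebpb, Myc and Cebpd, with Cebpd lowest at -0.73. The 28 points share 4 libraries and their depth, so these values only describe the pattern.

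**Figure D2:**
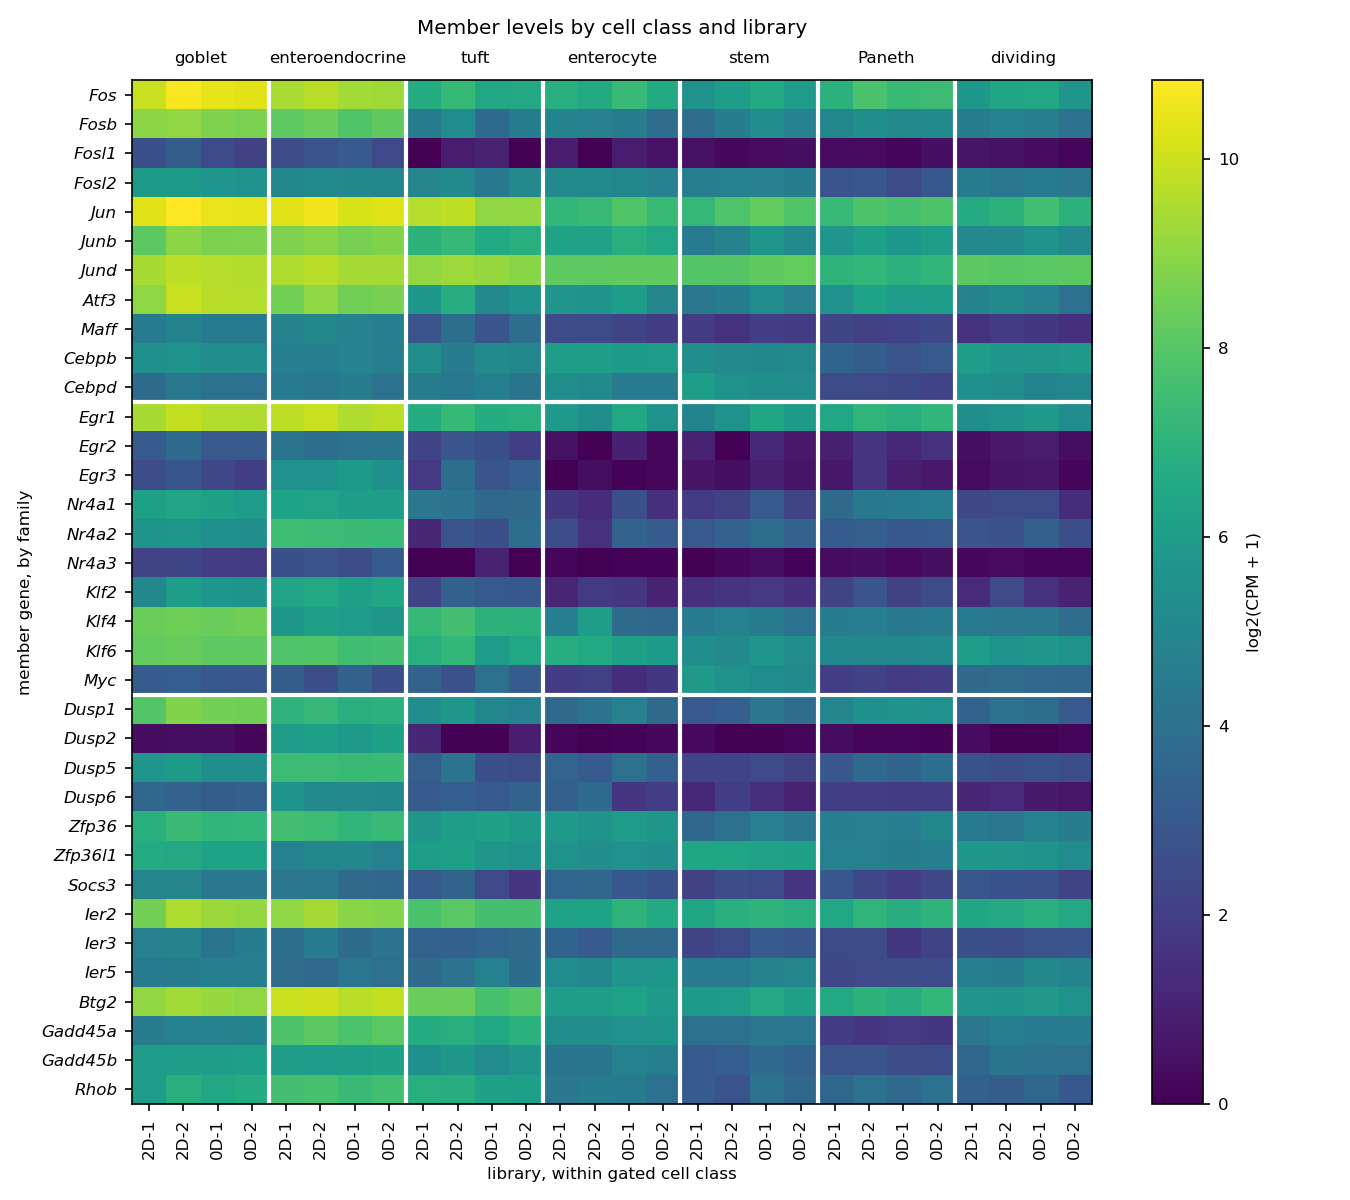
Level of each of the 35 genes as log2(CPM + 1) (colour) in 7 gated cell classes, with the 2D libraries left of the 0D libraries in each class and white lines between classes and gene families. Most rows are bright in goblet and enteroendocrine cells, Dusp2 is bright in enteroendocrine cells alone among the classes, and Myc and Cebpd are brightest in stem cells.

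Goblet cells were compared with the other gated cells of the same library by edgeR's quasi-likelihood test with library as a block. In goblet cells 28 of the 35 genes were higher and 4 were lower at an adjusted p under 0.05, where 34.3% and 34.2% of all 13908 genes tested were called higher and lower. The transcription factors Klf4, Atf3 and Fosb and the phosphatase gene Dusp1 were among the most different. Klf4, which takes part in goblet cell differentiation, had 337 and 350 CPM in goblet cells of 2D, against 342 and 361 CPM in 0D, while stem cells had 20.3 and 26.2 CPM in 2D and 22.3 and 15.5 CPM in 0D. Its log2 difference from the other gated cells was 3.73 ± 0.20 (SE, edgeR's adjusted p 4.13e-07). Goblet and stem values of Klf4 did not overlap in any library.

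Dusp1, whose product removes phosphates from MAP kinases, had 245 and 438 CPM in goblet cells of 2D, against 379 and 354 CPM in 0D. In stem cells Dusp1 had 7.05 and 8.55 CPM in 2D, against 18.8 and 13.8 CPM in 0D. The log2 difference of goblet cells from the other gated cells was 3.50 ± 0.17 for Dusp1 and 3.41 ± 0.21 for Atf3 (SE, edgeR's adjusted p 2.67e-07 and 8.17e-07). Atf3, a stress-induced bZIP factor, had 510 and 974 CPM in goblet cells of 2D, against 818 and 783 CPM in 0D. The 2D-1 library held the lowest goblet value of both genes and 2D-2 the highest, with 0D between them. Dusp2, a phosphatase gene best known from lymphocytes, was called lower in goblet cells, with a log2 difference of -4.34 ± 0.23 (edgeR, adjusted p 3.64e-07). Its goblet mean of 0.258 CPM still lay above the stem, dividing, enterocyte and Paneth means, the highest of them 0.165 CPM. Tuft and enteroendocrine means were higher, at 0.502 and 64.6 CPM, and both stood on the other side. Also lower in goblet cells were Myc with -0.80, Cebpd with -0.68 and Gadd45a with -0.51.

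To show regulatory sequence in front of genes that differed between classes, the 250 bases before the annotated transcript start are printed. They come from RefSeq, GRCm38.p6, and run 5′ to 3′ on the gene's strand. Fos, Atf3, Dusp1 and Klf4 had their highest mean CPM in goblet cells, and Btg2 and Dusp2 in enteroendocrine cells. These sets are not exclusive. Btg2 was also called higher in goblet cells, with a log2 difference of 1.91. Fos, Atf3 and Dusp1 had their second highest mean CPM in enteroendocrine cells. Capitals mark matches on either strand to TGACGTCA, the full cyclic AMP response element bound by CREB and ATF proteins, to its shorter core TGACG, to GCGNGGGCG, the site of EGR proteins, and to TATAAA, the TATA box.
Fos, chr12:85473640-85473889, plus strand: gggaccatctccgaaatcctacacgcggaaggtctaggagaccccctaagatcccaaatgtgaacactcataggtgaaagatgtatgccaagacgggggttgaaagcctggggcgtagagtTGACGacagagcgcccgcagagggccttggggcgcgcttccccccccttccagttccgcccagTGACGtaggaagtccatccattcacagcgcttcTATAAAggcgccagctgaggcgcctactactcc
Atf3, chr1:191183334-191183583, minus strand: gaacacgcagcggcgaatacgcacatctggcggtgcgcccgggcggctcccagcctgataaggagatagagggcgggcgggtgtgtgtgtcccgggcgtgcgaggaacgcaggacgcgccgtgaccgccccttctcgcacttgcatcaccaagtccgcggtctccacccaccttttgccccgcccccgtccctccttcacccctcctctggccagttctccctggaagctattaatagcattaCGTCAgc
Dusp1, chr17:26508473-26508722, minus strand: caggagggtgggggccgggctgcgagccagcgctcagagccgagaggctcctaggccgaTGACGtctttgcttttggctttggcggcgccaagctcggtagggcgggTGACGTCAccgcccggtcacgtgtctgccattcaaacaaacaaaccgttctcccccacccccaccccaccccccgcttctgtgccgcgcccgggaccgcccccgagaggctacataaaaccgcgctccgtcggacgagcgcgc
Klf4, chr4:55532476-55532725, minus strand: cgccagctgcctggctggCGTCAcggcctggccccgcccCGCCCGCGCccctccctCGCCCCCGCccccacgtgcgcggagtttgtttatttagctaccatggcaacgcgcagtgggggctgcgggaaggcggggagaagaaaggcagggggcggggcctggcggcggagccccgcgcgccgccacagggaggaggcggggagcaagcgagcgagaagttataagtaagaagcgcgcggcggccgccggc
Btg2, chr1:134079156-134079405, minus strand: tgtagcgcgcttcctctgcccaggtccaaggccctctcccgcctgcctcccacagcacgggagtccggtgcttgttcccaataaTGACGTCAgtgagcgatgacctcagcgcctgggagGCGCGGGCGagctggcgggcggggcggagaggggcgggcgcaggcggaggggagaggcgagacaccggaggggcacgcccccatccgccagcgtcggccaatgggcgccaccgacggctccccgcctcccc
Dusp2, chr2:127335909-127336158, plus strand: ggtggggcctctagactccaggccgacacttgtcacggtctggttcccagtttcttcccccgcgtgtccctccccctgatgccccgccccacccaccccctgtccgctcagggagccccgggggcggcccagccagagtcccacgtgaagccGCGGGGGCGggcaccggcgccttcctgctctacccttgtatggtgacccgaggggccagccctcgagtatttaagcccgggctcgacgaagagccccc

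Windows of 250 bases before and 50 after the start were found for 29 of the 35 genes, and Cebpd, Ier2, Egr1, Myc, Egr3 and Fosl1 had no entry in the table used. The core TGACG stood in the windows of 16 of the 29 genes, against 23% of all 27025 genes, and the full TGACGTCA, which contains it, in 3 (Dusp1, Btg2 and Maff), against 2.03%. GCGNGGGCG stood in 12 of the 29, against 6.27% of all genes, and TATAAA in 6, against 15.7%. The serum response element (CArG box) was matched in Egr2, Dusp5 and Zfp36, against 1.81% of all genes, and TGANTCA, the AP-1 site, in Zfp36l1 alone of the 29, against 8.97%. These windows were rich in G and C, with a median of 63.7% against 52.7% over all windows. Among the windows between the members' GC quartiles, TGACG stood in 10 of the 17 windows of members and in 32.4% of all 6587, and GCGNGGGCG in 5 of the 17 and in 9.69% (a gene can have more than 1 window). A match describes letters in this window and not a site in use.

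Enteroendocrine cells had 17 genes higher and 12 lower than the other gated cells, where 36.6% and 37.6% of all 14617 genes were called, and on library size alone, without TMM, 25 higher and 6 lower, where 61.8% and 15.4% of all genes were called. The median of all genes moved by 0.66 on the log2 scale between the 2 scalings. Goblet cells held 33.1% and 51.1% of the UMIs on the other side of this comparison in 2D, and 36.5% and 41.7% in 0D. Dusp2 had 61.0 and 67.6 CPM in enteroendocrine cells of 2D, against 57.9 and 71.8 CPM in 0D. No other class had more than 1.24 CPM of Dusp2 in any library, and the log2 difference was 7.73 ± 0.16 (SE, edgeR's adjusted p 5.70e-14). After thinning each cell to 2000 UMIs, which left out 46 and 87 shallower enteroendocrine cells in 2D and 38 and 38 in 0D, and 87 and 242 goblet cells in 2D and 72 and 86 in 0D, Dusp2 was seen in 9.02% and 9.33% of enteroendocrine cells of 2D and in 8.46% and 8.49% in 0D, while goblet cells had 0.0963% and 0.0496% in 2D and 0.139% and 0.103% in 0D. In the intervals for counting error, enteroendocrine shares of 6.11% to 11.6% did not reach the goblet shares of at most 0.354%. Before thinning, the enteroendocrine shares were 15.8% and 13.3% in 2D and 14.5% and 14.4% in 0D, at median depths of 6579 and 4704 UMIs in 2D and 5759 and 5929.5 in 0D, and the goblet shares at most 0.372%, at medians of 7369 to 12883.5 UMIs.

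Egr3, an early growth response factor, had 44.2 and 44.1 CPM in enteroendocrine cells of 2D, against 58.4 and 42.3 CPM in 0D, with a log2 difference from the other gated cells of 3.70 ± 0.22. Gadd45a, induced by DNA damage and other stress, differed by 2.81 ± 0.08 and the nuclear receptor gene Nr4a2 by 2.19 ± 0.10 (SE, edgeR's adjusted p 3.39e-09, 1.36e-12 and 2.87e-10 for the 3 genes). Dusp5 and Dusp6, nuclear and cytoplasmic ERK phosphatase genes, averaged 166 and 36.8 CPM in enteroendocrine cells, against 47.0 and 9.60 CPM in goblet cells. Btg2, an antiproliferative gene, averaged 940 CPM in enteroendocrine and 570 CPM in goblet cells. The opposite order held for Klf4, whose goblet mean was 584% of the enteroendocrine mean, for Zfp36l1 at 300% and for Dusp1 at 277%. Klf4, with -2.04, was the gene furthest below the other cells in enteroendocrine cells. Fos, Socs3, Ier3 and Atf3 were called lower in enteroendocrine cells with TMM, at -0.43, -0.42, -0.37 and -0.35, and lay above 0 on library size alone, at 0.23, 0.26, 0.31 and 0.31.

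In stem cells 2 genes were higher and 31 lower than in the other gated cells (35% and 37.9% of 14040 genes). On library size alone 3 were higher and 30 lower (49.1% and 26.1%). Goblet cells held 34.7% and 51.6% of the UMIs on the other side in 2D, and 41.8% and 46.1% in 0D. Myc, a Wnt target that drives growth, had 56.3 and 46.6 CPM in stem cells of 2D, against 37.7 and 34.9 CPM in 0D, and averaged 12.2 CPM in dividing cells and 2.51 CPM in enterocytes. Its log2 difference was 2.31 ± 0.08, and that of Cebpd, an acute-phase bZIP factor, 1.03 ± 0.08 (SE, edgeR's adjusted p 3.44e-10 and 1.83e-07). The lowest in stem cells were Dusp2 at -5.45, Atf3 at -4.12, Dusp1 at -4.10 and Klf2 at -3.95 (edgeR, adjusted p 1.36e-10 for Klf2). Klf2 is a quiescence factor of lymphocytes and endothelium. Dusp2 averaged 0.0888 CPM in stem cells and at most 0.502 CPM in any other class but enteroendocrine cells, at 64.6 CPM. Enteroendocrine cells also stood on the other side for Dusp2 in dividing, enterocyte, tuft and Paneth cells.

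In dividing cells 2 genes, Cebpd and Cebpb, were higher and 31 lower (33.4% and 37% of 14012 genes), with Dusp2 at -5.07, Dusp1 at -4.29, Atf3 at -4.27 and Klf2 at -4.16. In enterocytes, the absorptive cells, 4 were higher and 28 lower (32.8% and 40.5% of 13902 genes). The 4 were Ier5 at 1.09, Cebpb at 0.80, Gadd45a at 0.48 and Cebpd at 0.42, and the lowest were Egr3 at -5.13, Dusp2 at -4.68, Nr4a3 at -4.15 and Klf2 at -3.89. In tuft cells 2 were higher, Gadd45a at 1.29 and Rhob at 0.31, and 29 lower (24.3% and 30.4% of 13833 genes). Library size alone gave 4 and 17 (41% and 15.7%). Goblet cells held 31.5% and 49.2% of the UMIs on the other side of the tuft comparison in 2D, and 35.5% and 40.7% in 0D. Their share was 39.7% to 53.2% for dividing cells and 33.7% to 50.3% for enterocytes. Klf4, called lower in tuft cells at -0.49, averaged 149 CPM there. Its mean was 348 CPM in goblet cells and at most 59.5 CPM in any other class. Fosb, Nr4a3, Dusp2 and Atf3 were the lowest in tuft cells, at -3.56, -3.35, -3.25 and -3.05. Jun was also called lower in tuft cells, at -0.62, but less far below the other cells than Fos at -3.00. In tuft cells Jun had 789 and 895 CPM in 2D and 519 and 541 CPM in 0D. Fos had 104 and 150 CPM in 2D and 85.6 and 91.8 CPM in 0D.

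Paneth cells gave no stable direction. With TMM 13 genes were higher and 9 lower (22.9% and 25.2% of 13692 genes), and on library size alone 0 were higher and 35 lower, where 1.74% and 96.3% of all genes were called and the median of all genes shifted by -2.37. Paneth markers took between 624700 and 652200 CPM of the UMIs of these cells. The genes furthest from 0 with TMM were Dusp2 at -2.13, Gadd45a at -1.61, Fosl1 at -1.41 and Nr4a1 at 1.28, the last at -1.09 on library size alone. In Paneth cells the goblet markers stood at 13.9% and 11.9% of their goblet level in 2D and 10.0% and 10.4% in 0D, and the 35 genes at 13.0% and 13.7% in 2D and 14.2% and 15.3% in 0D. The sum of the genes thus stood near the goblet-marker level in Paneth cells, while single genes lay to both sides of it. Klf4 stood at 5.57% to 7.08% of its goblet level. Zfp36l1 averaged 24.8 CPM in Paneth and 86.7 CPM in goblet cells, and Nr4a1 19.3 and 71.4 CPM. The part of goblet RNA in these levels was not tested, and they are not read as expression in Paneth cells.

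In the other classes the summed genes stood above the goblet-marker level by the same measure, while Dusp1 came close to that level in stem cells of 2D. Goblet markers stood at 1.5% and 1.55% of their goblet level in stem cells of 2D and 1.18% and 1.2% in 0D, while the 35 genes stood at 13.3% and 12.2% in 2D and 17.5% and 15.6% in 0D, Fos at 4.09% to 7.11%. Dusp1 stood at 2.65% and 2.07% in stem cells of 2D, and at 4.97% and 3.97% in 0D. In dividing cells goblet markers stood at 1.06% to 2.02%, the 35 genes at 11.1% to 14%, Fos at 3.87% to 6.36% and Dusp1 at 2.08% to 3.74%. In enterocytes goblet markers stood at 0.882% to 1.54%, the 35 genes at 13.8% to 19.3%, Fos at 5.83% to 11.6% and Dusp1 at 3.67% to 6.8%. In tuft cells goblet markers stood at 1.5% to 3.35% and the 35 genes at 27.9% to 37.0%. In enteroendocrine cells the values were 3.52% to 7.79% and 80.5% to 97.6%.

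Within goblet cells the genes were unevenly spread. Thinned to 2000 UMIs, Atf3 was seen in 56.4% of goblet cells of 2D-1 and 66.1% of 2D-2, against 65.4% in 0D-1 and 62.6% in 0D-2, with exact 95% intervals of 54.6 to 58.1, 64.6 to 67.6, 63.7 to 67.2 and 60.8 to 64.3. Unthinned shares were 73.7% and 79.5% in 2D and 80.2% and 79.9% in 0D, at median depths of 7369 and 9212 UMIs in 2D and 11170 and 12883.5 in 0D. In stem cells the thinned shares were 2.21% and 3.49% in 2D and 5.95% and 3.85% in 0D. Goblet cells with Atf3 carried means of 140 and 129 UMIs of the other 34 genes per 10000 in 2D and 114 and 110 in 0D. Those without it carried 56.1 and 54.2 in 2D and 49.5 and 47.5 in 0D. In every library the goblet cells with Atf3 were shallower, in 2D-1 with a median of 6017 against 11603 UMIs. Their median mitochondrial share in 2D-1 was 10.2% against 6.49%. The other classes differed in the same direction, as in enteroendocrine cells of 2D-1 with 128 against 68.9 per 10000. Fos was seen in 93.3% and 94.3% (2D) and 93.5% and 93.1% (0D) of goblet cells with Atf3, and in 47.1% and 56.9% (2D) and 47.0% and 48.0% (0D) of those without. Klf4, in contrast, was seen in 55.2% and 49.9% (2D) and 50.3% and 54.0% (0D) of cells with Atf3 and in 48.1% and 42.4% (2D) and 43.3% and 46.1% (0D) of those without.

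Depth and mitochondrial share moved with these levels in goblet cells. In all 4 libraries the summed level was lower in cells of 20000 UMIs or more (3712 and 4960 CPM in 2D, 5243 and 5383 CPM in 0D, on plain library totals) than in cells of 2000 to 5000 UMIs (15400 and 14030 CPM in 2D, 13480 and 11750 CPM in 0D). In 2D-1 the level was 12790 CPM in goblet cells with 10% to 20% mitochondrial UMIs and 5619 CPM in those with 2.5% to 5%. For these ranges 2D-2 had 11950 and 10170 CPM, 0D-1 had 8538 and 9318 CPM and 0D-2 had 7433 and 8617 CPM. The part of depth and mitochondrial share in the differences between libraries was not tested beyond the settings given with the results.

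**Figure D3:**
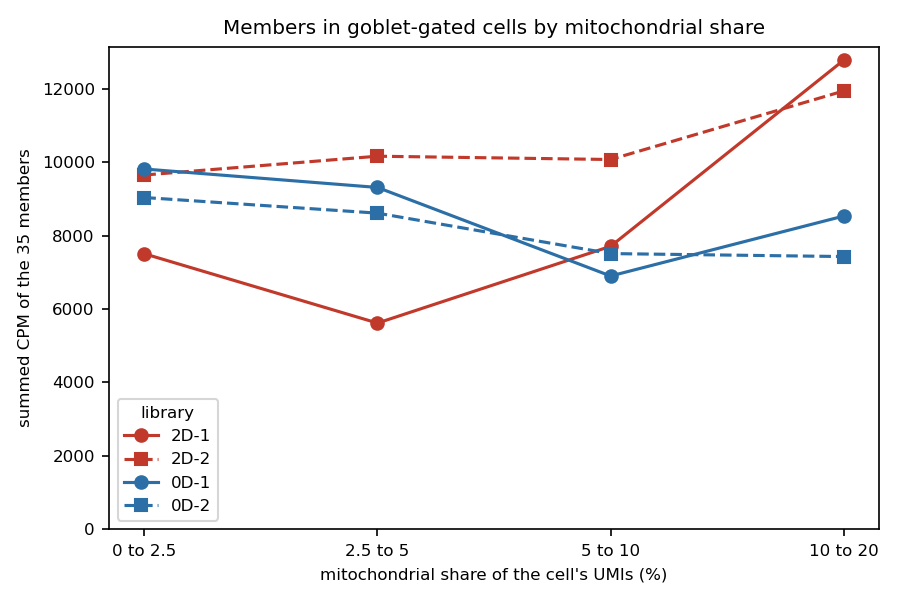
Summed CPM of the 35 genes in goblet cells (plain library totals) by the mitochondrial share of each cell's UMIs, with 1 line per library (2D red, 0D blue, solid replicate 1, dashed replicate 2). The line of 2D-1 runs between 5619 and 12790 CPM, and those of the other libraries between 6903 and 11950 CPM.

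The comparison of 2D with 0D in all kept cells asked whether the genes changed after sleep deprivation. Of the 35 genes 0 passed the adjusted threshold, as did 0% of all 15454 genes (0 genes in edgeR's quasi-likelihood test, with 3132 at an unadjusted p under 0.05 and 758 called by DESeq2). DESeq2 called 2 members higher and 1 lower (2.89% and 2.02% of all genes). The median log2 change of the 35 genes was 0.37, against 0.0052 over all genes, and 34 of 35 lay above 0, Ier5 being the exception. At an unadjusted p under 0.05 there were 11 higher and 1 lower, against 11.2% and 9.1% of all genes. On library size alone the medians were 0.24 and -0.11, and 31 of 35 lay above 0. With both 2D libraries above both 0D libraries there were 17 of the 35, against 28.1% of all genes, and with both below there was 1, against 27.5%.

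The 12 most abundant members did not separate the groups as a block. Jun had 576 and 1087 CPM in 2D, against 630 and 628 CPM in 0D. Fos had 400 and 933 CPM in 2D, against 513 and 526 CPM in 0D, and Dusp1 had 95.3 and 235 CPM in 2D, against 136 and 139 CPM in 0D. For these 3 genes, and for Jund, Egr1, Atf3, Ier2, Junb and Klf4, 2D-1 lay below or among the 0D values and 2D-2 above them. Jund had 404 and 569 CPM in 2D, against 423 and 436 CPM in 0D. Egr1 had 304 and 544 CPM in 2D and 314 and 325 CPM in 0D, Atf3 had 203 and 527 CPM in 2D and 290 and 305 CPM in 0D. The 0D pair was close for all of these, and the 2D pair was wide.

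Ier2, an early response gene of unsettled function, had 201 and 451 CPM in 2D, against 271 and 267 CPM in 0D. Junb, a JUN family member, had 139 and 297 CPM in 2D, against 179 and 195 CPM in 0D, and Klf4 had 123 and 189 CPM in 2D, against 120 and 138 CPM in 0D. Of the 12, 3 had both 2D libraries above 0D. Btg2 had 267 and 429 CPM in 2D, against 255 and 260 CPM in 0D. Fosb had 185 and 285 CPM in 2D, against 157 and 164 CPM in 0D, and Klf6, a stress-responsive zinc finger factor, had 142 and 189 CPM in 2D, against 125 and 131 CPM in 0D. Their log2 changes were 0.44 ± 0.23, 0.55 ± 0.21 and 0.37 ± 0.15 (SE, edgeR's adjusted p 0.344, 0.239 and 0.263).

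**Figure D4:**
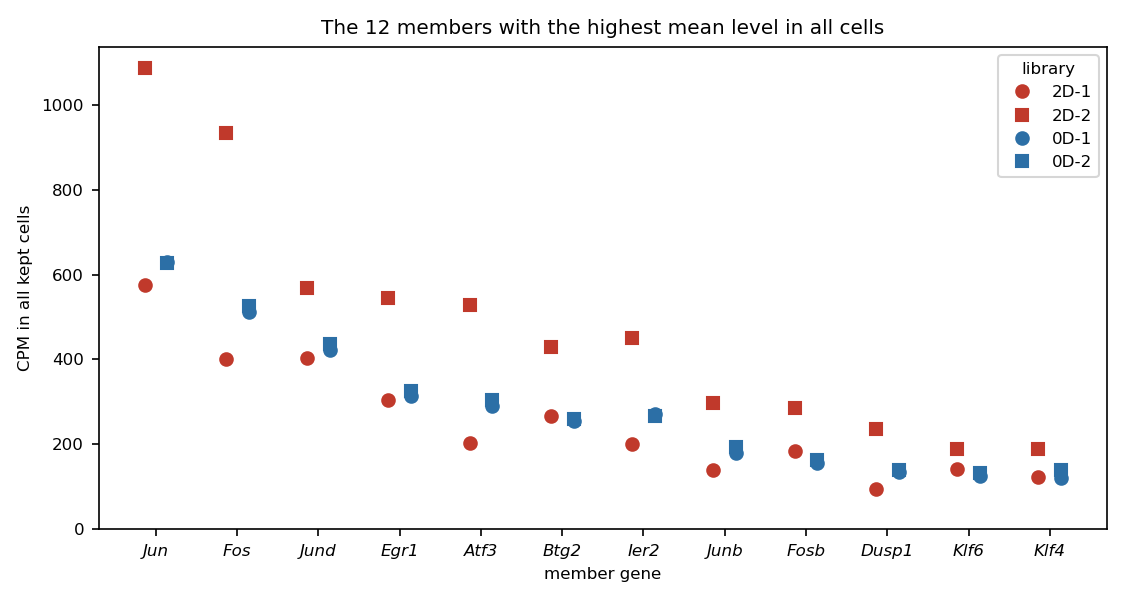
CPM of the 12 members with the highest mean level, in all kept cells of each library, with 2D libraries in red on the left of each gene and 0D libraries in blue on the right (circles replicate 1, squares replicate 2). The 2D-2 library lies highest for every one of the 12 genes, and 2D-1 lies below both 0D libraries for 8 of them.

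The members with the largest changes in all cells were feedback and low-level genes, and none passed the adjusted threshold. Socs3, an inhibitor of cytokine signalling, had 15.1 and 18.0 CPM in 2D, against 9.33 and 9.58 CPM in 0D, a log2 change of 0.81 ± 0.12 (SE, edgeR's adjusted p 0.151). Dusp6, the ERK phosphatase gene, had 8.32 and 8.71 CPM in 2D, against 4.69 and 5.38 CPM in 0D, a log2 change of 0.76 ± 0.12 (edgeR's adjusted p 0.151). Both genes had 2D libraries close together and above 0D, and DESeq2 called both. Fosl1, an AP-1 subunit, had 2.15 and 4.38 CPM in 2D, against 1.77 and 1.43 CPM in 0D, and Egr3 had 4.34 and 6.66 CPM in 2D, against 3.63 and 2.82 CPM in 0D. Egr2 had 3.73 and 7.71 CPM in 2D, against 3.39 and 3.64 CPM in 0D, and Dusp2 had 3.42 and 3.93 CPM in 2D, against 2.01 and 2.56 CPM in 0D. Nr4a3 had 1.57 and 2.36 CPM in 2D, against 1.2 and 1.31 CPM in 0D, and Dusp5 had 29.4 and 43.1 CPM in 2D, against 22.9 and 23.7 CPM in 0D. All 4 had both 2D libraries above 0D, with log2 changes of 0.70 ± 0.35 for Egr2, 0.69 ± 0.18 for Dusp2, 0.64 ± 0.24 for Nr4a3 and 0.64 ± 0.19 for Dusp5 (SE, edgeR's adjusted p 0.323, 0.172, 0.230 and 0.188). Ier5, called lower by DESeq2, had 19.1 and 18.7 CPM in 2D, against 25.5 and 24.8 CPM in 0D.

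The count in all cells depended on which 2D library was kept. Without 2D-1, when the lone 2D library is assumed to vary like the 0D pair, 30 genes were called higher and 1 lower (12.8% of all genes in each direction), with a median of 0.74. Without 2D-2, 5 were called higher and 7 lower (6.28% and 5.77% of all genes), with a median of 0.10. A sum over all cells cannot tell more cells of a high class from more RNA in each cell. Goblet and enteroendocrine cells held 31.2% and 5.79% of gated UMIs in 2D-1 and 48.4% and 5.30% in 2D-2, against 35.2% and 3.69% in 0D-1 and 40.2% and 3.61% in 0D-2. When the levels within classes were averaged with the same class shares in every library, the median log2 change was 0.15 and 27 of 35 genes lay above 0, against 0.23 and 31 with each library's own shares, both over gated cells on plain totals. Genes with both 2D libraries above both 0D libraries numbered 19 with the same shares, against 16 with own shares.

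Within classes the fitted changes were mixed. In goblet cells 0 of 35 passed (0.0748% of 13373 genes), with a median of 0.15, and 6 had an unadjusted p under 0.05, all higher (5.09% of all genes). Of the 35, 15 had both 2D libraries above both 0D libraries, against 24.1% of all genes, and 2 below, against 23.1%. Socs3 had 29.7 and 29.1 CPM in goblet cells of 2D, against 18.6 and 19.4 CPM in 0D, a log2 change of 0.63 ± 0.12 (SE, edgeR's adjusted p 0.249). Fosl1, Egr3 and Dusp5 had log2 changes of 0.82, 0.70 and 0.43 (edgeR's adjusted p 0.448, 0.442 and 0.448). Fos itself had 979 and 1675 CPM in goblet cells of 2D, against 1368 and 1303 CPM in 0D, a log2 change of -0.0088 ± 0.29. Without 2D-1, 22 goblet genes were called higher (4.06% of all genes). Without 2D-2, 9 were called higher and 10 lower (19.2% and 20.7%).

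**Figure D5:**
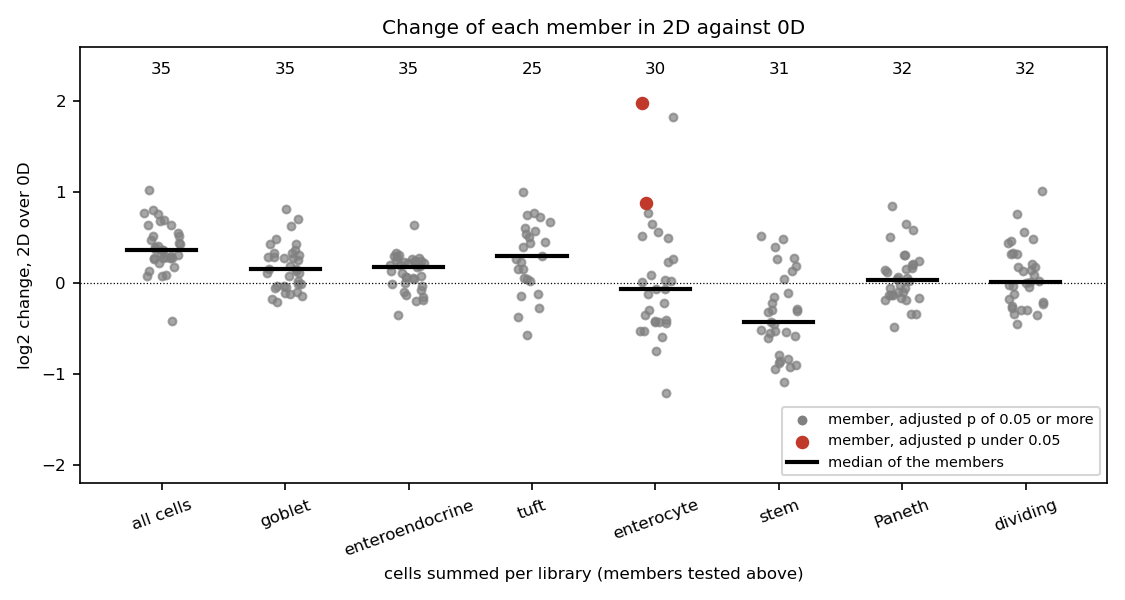
Log2 change of each tested member in 2D against 0D (points, spread sideways for view) in all kept cells and in each gated class, with the number tested above and the median as a black bar. Red points are the 2 members past the adjusted threshold, both in enterocytes, and the medians run between -0.43 in stem cells and 0.37 in all cells.

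In stem cells most fitted changes lay below 0, and none passed the adjusted threshold. Of the 31 genes tested (Fosl1, Egr3, Dusp2 and Nr4a3 were too low), 0 passed (0.0849% of 11785 genes), the median was -0.43 and 23 lay below 0. At an unadjusted p under 0.05 there were 17 lower and 3 higher, against 5.67% and 6.53% of all genes. With both 2D libraries below both 0D libraries there were 17, against 22% of all genes, and with both above there were 3, against 21.7%. Dusp1 had the largest change, -1.09 ± 0.20 (SE, edgeR's adjusted p 0.117), on the stem values given above. In 2D these stood close to the goblet-marker level, and the part of goblet RNA in the change was not tested. Egr1 had 28.8 and 46.8 CPM in stem cells of 2D, against 83.1 and 59.1 CPM in 0D, and Junb had 22.1 and 27.9 CPM in 2D, against 52.9 and 35.8 CPM in 0D. Their log2 changes were -0.95 ± 0.22 and -0.86 ± 0.19 (edgeR's adjusted p 0.207 and 0.191).

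Rhob, a small GTPase gene induced by stress, had 7.65 and 6.13 CPM in stem cells of 2D, against 15.5 and 11.2 CPM in 0D. The 3 genes above 0 at that level were Myc at 0.51 ± 0.11, Cebpd at 0.49 ± 0.14 and Zfp36l1 at 0.19 ± 0.08 (SE, edgeR's adjusted p 0.167, 0.278 and 0.393). Myc and Cebpd are also the members highest in stem cells. DESeq2 called 2 genes lower in stem cells, Dusp1 and Junb (0.365% of all genes). Without 2D-1, 5 were called lower (1.78% of all genes), without 2D-2, 15 lower and 2 higher (2.51% and 3.3%), and without 0D-2, 10 lower (0.353%). Without 0D-1 none were called and the median was -0.20. Paneth markers in stem cells stood at 4080 and 5075 CPM in 2D, against 2151 and 2811 CPM in 0D, and goblet markers at 1585 and 2078 CPM in 2D, against 1572 and 1659 CPM in 0D; their part in the result was not tested. The change in goblet cells minus that in stem cells, tested with library as a block, passed for 0 of 34 genes (0.0223% of 13462 genes), with 29 above 0. At an unadjusted p under 0.05 there were 13, all above 0 (3.93% of all genes), led by Ier3 at 1.21 ± 0.26, Fosb at 1.16 ± 0.25 and Egr1 at 1.00 ± 0.23 (SE, edgeR's adjusted p 0.287, 0.303 and 0.324). Without 2D-1, 3 passed above 0 (0.194% of all genes), without 2D-2, 6 above and 1 below (3.32% and 10.9%), and without 0D-2, 1 above (0.152%).

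Enterocytes held the only members past the threshold in the comparison of groups as fitted. Dusp6 had 8.99 and 12.7 CPM in enterocytes of 2D, against 2.3 and 2.95 CPM in 0D, a log2 change of 1.99 ± 0.29 (SE, edgeR's adjusted p 0.0229). Cebpd had 41.5 and 35.6 CPM in 2D, against 21.3 and 21.1 CPM in 0D, a log2 change of 0.88 ± 0.13 (edgeR's adjusted p 0.0236). For both genes the groups did not overlap, and 2 of 30 members compare with 0.415% of the 10836 genes called higher. Klf4 had 24.6 and 64.9 CPM in 2D, against 12.3 and 11.4 CPM in 0D (log2 change 1.82 ± 0.37, edgeR's adjusted p 0.0792), and 2D-2 carried most of it. Klf6 had 107 and 96.0 CPM in 2D, against 70.7 and 59.6 CPM in 0D (adjusted p 0.0571). Lower in enterocytes without passing were Nr4a2, with 4.84 and 1.91 CPM in 2D against 10.0 and 7.80 CPM in 0D, and Ier2, with 75.1 and 77.3 CPM in 2D against 131 and 97.6 CPM in 0D (adjusted p 0.181 and 0.132).

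The enterocyte calls did not hold in several settings. Neither gene passed with a stricter gate (adjusted p 0.0547 for Dusp6 and 0.0618 for Cebpd) or without a filter on low counts (0.116 and 0.120), and their log2 changes there were 2.08 and 0.87, and 1.97 and 0.86. Without 0D-1 the adjusted p was 0.0555 for Dusp6 and 0.0998 for Cebpd, and without 0D-2 0.0127 and 0.0971. Under a mitochondrial limit of 10% it was 0.0827 for Dusp6 and 0.0408 for Cebpd. With each cell thinned to 2000 UMIs it was 0.0518 for Dusp6 and 0.532 for Cebpd, with log2 changes of 2.86 and 0.57. DESeq2 called 3 genes higher (0.812% of all genes). Without 2D-1, 4 genes were called higher and 6 lower (2.66% and 1.61%), without 2D-2, 4 and 5 (5.16% and 3.04%), without 0D-1, 1 higher (0.452%), and without 0D-2, 2 and 2 (0.608% and 0.184%). In dividing cells both 2D libraries of Dusp6 also lay above 0D, at 1.24 and 1.44 CPM against 0.72 and 0.56 CPM in 0D, and Cebpd at 42.0 and 39.5 CPM against 28.3 and 30.1 CPM, with log2 changes of 1.01 ± 0.37 and 0.48 ± 0.09 (SE, edgeR's adjusted p 0.433 and 0.192).

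In the other 4 classes 0 members passed as fitted. Dividing cells had a median of 0.016 over 32 genes (0.00828% of 12071 genes called), Paneth cells 0.031 over 32 (0.0186% of 10738), enteroendocrine cells 0.18 over 35 (0.268% of 11921) and tuft cells 0.30 over 25 (0.367% of 8713). Socs3 had 18.4 and 19.3 CPM in enteroendocrine cells of 2D, against 12.4 and 11.8 CPM in 0D, a log2 change of 0.64 ± 0.19 (SE, edgeR's adjusted p 0.557). In enteroendocrine cells 16 genes had both 2D libraries above both 0D libraries and 2 below (18.3% and 17.7% of all genes), and in tuft cells 13 of those tested above and 1 below (22.3% and 22.3%). Paneth cells had 8 above and 3 below (18.7% and 18.4%), dividing cells 6 and 4 (20.9% and 21.6%), and enterocytes 10 and 9 (22.7% and 22.5%). Jun was the tuft gene with the smallest p, with a log2 change of 0.67 ± 0.15 on the values above, and Atf3 had 53.1 and 105 CPM in tuft cells of 2D, against 33.8 and 47.1 CPM in 0D (edgeR's adjusted p 0.147 and 0.221). Without 2D-1, 7 tuft genes were called higher, without 2D-2, 3, and without 0D-2, 1 (0.9%, 3.22% and 0.615% of all genes). Without 2D-1, 3 genes were called higher in dividing cells, and without 2D-2, 3 higher and 2 lower (1.75%, 4.34% and 2.55%). In Paneth cells 1 was called higher and 3 lower without 2D-2 (1.98% and 1.23%).

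The rest of the pathway was read from other lists in all cells, and 0 genes of any list passed there. The SRF, TCF and MRTF factors, listed with the CREB-family genes Creb1 and Crem, switch on early genes and had a median log2 change of 0.16 over 8 genes, with 6 above 0. Mrtfa, a co-activator of SRF, had 8.44 and 9.34 CPM in 2D, against 6.68 and 6.96 CPM in 0D (log2 change 0.38 ± 0.11). Creb1, which binds the cyclic AMP response element, had 32.5 and 31.5 CPM in 2D, against 28.8 and 26.6 CPM in 0D, and the related Crem had 3.43 and 4.36 CPM in 2D, against 3.23 and 3.16 CPM in 0D. These 3 factors, like the 3 genes named from each other list, were picked by the smallest p in this same comparison. That their libraries separate is therefore no result of its own. Genes of the ERK pathway (ligands, receptors and feedback genes, 20 of 21 tested) had a median of 0.10 and 15 above 0. Etv5, a transcription factor induced by ERK, had 5.93 and 6.18 CPM in 2D, against 3.01 and 3.36 CPM in 0D (log2 change 0.93 ± 0.12, edgeR's adjusted p 0.151). Dusp4, a phosphatase of MAP kinases, had 4.14 and 5.19 CPM in 2D, against 3.25 and 3.63 CPM in 0D. Erbb2, a receptor of the EGF family, had 20.8 and 14.8 CPM in 2D, against 25.3 and 21.8 CPM in 0D, with both 2D libraries below. AP-1 and other bZIP factors outside the 35 genes, a list that also holds Creb1 and Crem, had a median of 0.21 over 20, with 14 above 0. Atf6, a sensor of endoplasmic reticulum stress, had 42.0 and 43.3 CPM in 2D, against 28.8 and 32.1 CPM in 0D (log2 change 0.49 ± 0.09), and Atf5, a factor of the stress response, had 9.78 and 12.4 CPM in 2D, against 6.61 and 7.26 CPM in 0D. Nfe2l2, the regulator of antioxidant genes, had 111 and 112 CPM in 2D, against 131 and 133 CPM in 0D, with both 2D libraries below. Other early response genes had a median of 0.16 over 44, with 31 above 0. Cited2, a transcriptional co-regulator, had 60.0 and 64.1 CPM in 2D, against 48.4 and 50.4 CPM in 0D (log2 change 0.33 ± 0.08, SE, edgeR's adjusted p 0.167). Arc, an early gene of neurons, had 3.87 and 5.02 CPM in 2D, against 2.89 and 2.77 CPM in 0D. Klf3, a zinc-finger repressor, had 161 and 181 CPM in 2D, against 136 and 135 CPM in 0D. The median of all genes was 0.0052.

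Heat shock genes of dissociation signatures had the highest median of these lists, 0.59 over 14 genes, with 10 above 0 and 4 below. At an unadjusted p under 0.05 in edgeR's test, 4 were higher and 3 lower in all cells. The shares of all genes at that level in all cells are given above. The 3 genes named next had the smallest p of the list, and all were higher. Hsph1, a chaperone of the HSP110 family, had 80.0 and 122 CPM in all cells of 2D, against 61.3 and 51.2 CPM in 0D, and Hspa8, the constitutive HSP70, had 1176 and 1617 CPM in 2D, against 956 and 691 CPM in 0D (edgeR's adjusted p 0.173 and 0.190). Dnaja1, a co-chaperone, had 284 and 407 CPM in 2D, against 227 and 210 CPM in 0D. Unlike the 35 genes, this list had a positive median in stem cells too, 0.47, with 10 of 13 genes above 0. In enterocytes 2 of its 13 genes passed, both higher: Hsph1 at 1.34 ± 0.18 and Dnaja1 at 0.90 ± 0.14 (SE, edgeR's adjusted p 0.0176 and 0.0284). The difference between the 2 lists was not tested.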

How the data were processed

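Single-cell RNA counts of 4 libraries were used. The authors deposited filtered matrices of UMI counts per gene and cell, with no normalization. Cell Ranger 2.1.1 and mm10 are named by the submitters' processing notes, while the matrix headers, per the file headers, name cellranger 7.0.0, so the version is not settled. Cells under 500 genes or over 20% mitochondrial UMIs were left out. Gates on marker UMIs gave 7 classes. A cell past the cut of enterocyte, goblet, Paneth, enteroendocrine or tuft cells went to the class that led by 2-fold relative to its cut. Without such a lead it was left mixed. Of the cells past none of these cuts, those with at least 20 stem marker UMIs per 10000 were called stem. Dividing cells had at least 20 dividing marker UMIs per 10000 and fewer than 20 of stem markers. Dividing cells past the stem cut thus count as stem. Other cells were left ungated, and cells past a cut on immune markers were set apart. Clusters and a doublet caller were not used.

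Counts were summed per library and class and tested with edgeR 4.0.16 (filterByExpr, TMM, quasi-likelihood, Benjamini-Hochberg threshold 0.05) in R 4.3.3, with DESeq2 1.42.0 as an alternative. Class comparisons had library as a block. Each SE is the absolute log2 change divided by the square root of the F statistic of edgeR's test. Exact Clopper-Pearson 95% intervals cover counting error only. With 2 libraries a group an exact permutation test cannot go below 0.333. The test was checked on simulated counts, where false calls ran above the nominal rate, most in all cells and stem cells. Same-numbered libraries were checked for pairing (r = 0.0651 over 15454 genes) and were not treated as pairs. Named were the 12 most abundant members, the 8 with the largest changes in all cells, those past the threshold, the 4 largest differences of each class, and the 3 genes of smallest p in each other list. The members and lists were chosen with earlier results of these data known. Alternatives were other scalings, filters, gates, thinning and leaving out each library.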

Additional observations from a re-analysis of the deposited data

Results flagged for a closer look

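Some genes had both 2D libraries below both 0D libraries in one class and above them in another. Each count of members stands here beside the share of all genes, among those tested in both classes, with such an opposite pattern. Between stem and goblet cells there were 4 of 31 (Fosb, Ier3, Klf6 and Maff, lower in stem cells), against 4.23% of all genes, and the difference itself was tested there and passed for none of the 34 genes tested (edgeR, with 13 at an unadjusted p under 0.05). The differences in the other pairs were not tested. Stem cells differed in this way from enteroendocrine cells for 10 of 31 genes (5.17% of all genes), from tuft cells for 9 of 25 (5.4%), from enterocytes for 3 of 30 (Fosb, Klf6 and Maff, 3.74%), from Paneth cells for 2 of 31 (5.5%) and from dividing cells for 1 of 31 (Atf3, 2.83%), with every one of these genes lower in stem cells. Dividing cells differed from goblet cells for 1 of 32 genes (Ier3, 4.55%), from Paneth cells for 1 of 32 (3.66%), from enteroendocrine cells for 1 of 32 (Zfp36, 4.16%) and from tuft cells for 1 of 25 (Junb, 6.22%). Enterocytes differed from enteroendocrine cells for 4 of 30 genes (4.52%), from tuft cells for 3 of 25 (5.76%), from Paneth cells for 3 of 30 (4.71%) and from goblet cells for 2 of 30 (Ier3 and Nr4a2, lower in enterocytes, 4.09%). Goblet and tuft cells differed for 1 of 25 genes (Ier3, lower in tuft cells, 4.13%), Paneth and enteroendocrine cells for 3 of 32 (3.59%), and Paneth and tuft cells for 3 of 25 (6.56%). All classes come from the same 4 libraries, so these counts are not independent of each other.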

How the results depend on the processing

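Over all alternatives, 266 summary values kept their side or size, 32 moved, 26 became stronger and 3 weaker, and of the named genes 465 values kept their call, 27 became stronger, 14 weaker and 10 reversed. Members past the threshold in 2D against 0D (0 as fitted, 2 in enterocytes) numbered 3 in all cells with DESeq2 and 3 with thinned cells (0.505% of all genes called). With no filter on low counts they were 16 in stem (2.74% of all genes), 1 in dividing (1.35%), 0 in enterocyte (0.0308%), 3 in goblet (1.77%) and 3 in tuft cells (1.33%), and with DESeq2 2 in stem cells. With a replicate block they were 3 in stem (0.679%), 6 in enterocyte (2.01%), 2 in goblet (2.32%) and 1 in tuft cells (1.07%), and the block changed no other count; the libraries share only a number. In enterocytes they were 1 with at most 10% mitochondrial UMIs (0.463%), 1 with thinned cells (0.732%) and 0 with the stricter gate (0.15%). Thinning moved the median change to 0.12 in enterocytes, -0.34 in Paneth and 0.51 in tuft cells. Against the other gated cells, library size alone, chosen after seeing the data as were the fixed class shares, gave 0 higher and 35 lower in Paneth (1.74% and 96.3%), 6 lower in enteroendocrine (15.4%), and 4 higher and 17 lower in tuft cells (41% and 15.7%), and reversed Nr4a1 in Paneth cells to -1.09. Thinning gave 4 higher and 4 lower in Paneth (6.73% and 7.62%), 1 higher in dividing (27.3%) and 1 higher in tuft cells (18.5%).

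Leaving out each library in turn gave 0 to 31 members and medians of 0.10 to 0.74 in all cells, 0 to 17 and -0.49 to -0.20 in stem, 0 to 5 and -0.083 to 0.26 in dividing, 1 to 10 and -0.26 to 0.15 in enterocyte, 0 to 22 and 0.012 to 0.29 in goblet, 0 to 4 and -0.15 to 0.19 in Paneth, and 0 to 7 and 0.18 to 0.52 in tuft cells, and medians of 0.10 to 0.22 in enteroendocrine cells. It gave 9 to 19 higher and 5 to 9 lower in Paneth cells against the others, 1 to 2 higher and 25 to 29 lower in tuft cells, and 0 to 7 for the goblet minus stem difference. Without 2D replicate 2, all-cell changes reversed, the range over libraries left out being -0.13 to 0.79 for Jun, -0.38 to 0.84 for Fos, -0.090 to 0.40 for Jund, -0.074 to 0.77 for Egr1, -0.55 to 0.83 for Atf3, -0.42 to 0.74 for Ier2, -0.43 to 0.67 for Junb, -0.53 to 0.78 for Dusp1 and -0.069 to 0.55 for Klf4. The cause was not tested. Depth limits the genes under 1 CPM, such as Dusp2 outside enteroendocrine cells.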
